A study of Rattus norvegicus with 60 samples.

Results

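Cyclin D1, encoded by Ccnd1, was followed in rat liver together with 8 other genes that act around the G1 phase of the cell cycle: Ccnd2, Ccnd3, Ccne1, Cdk4, Rb1, Cdkn1b, Cdkn2c and Myc. The set held 9 of the 14217 genes named on the array. All 3 probe sets of Ccnd1 were used, and each of the others was represented by its brightest probe set on average, which gave 11 of the 31042 probe sets tested. The set was chosen by the values of Ccnd1 and of mitotic genes in the dosed groups. At the highest doses Ccnd1 was low while mitotic genes were high, which did not hold at every lower dose. The values of Ccnd1 and of mitotic genes are therefore given below as a description, with no test. The other 8 genes were included by name, with the results of these arrays known.

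The arrays were one-colour Affymetrix 3′ expression arrays of liver RNA from male F344/N rats, which were 5 to 6 weeks old when the study began and were fed NTP-2000 diet. DMPT (N,N-dimethyl-p-toluidine) and p-toluidine are aromatic amines that differ by the pair of methyl groups on the nitrogen of DMPT. Each was given in corn oil by oral gavage for 5 consecutive days at daily doses of 1, 6, 20, 60 and 120 mg per kg of body weight, and each had its own vehicle group that received corn oil. Every one of the 12 groups had 5 arrays made from pieces of the left lateral lobe. All groups were of the same strain, sex, lobe and vehicle. Because the labels link no array to a named animal, p-values reflect only how these samples differ among themselves.

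In G1, D-type cyclins activate the kinases CDK4 and CDK6, which phosphorylate the retinoblastoma protein (Rb1) and so release E2F transcription factors. Cyclin E (Ccne1) with CDK2 completes this step, the INK4 protein p18 (Cdkn2c) blocks CDK4 and CDK6, and p27 (Cdkn1b) restrains cyclin-CDK complexes, mainly those of CDK2. In liver, cyclin D1 is known as the D-type cyclin that increases when hepatocytes leave quiescence after partial hepatectomy, and Myc is an early gene of that response.

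A promoter sequence is shown for Cdk4, because it is the member whose start-site window held the letters bound by MYC with its partner MAX, and both Cdk4 and Myc are in the set. The window is from RefSeq (GRCr8) at chr7:64771203-64771452 on the plus strand, the 250 bases before the annotated start, with CACGTG in capitals.
Cdk4: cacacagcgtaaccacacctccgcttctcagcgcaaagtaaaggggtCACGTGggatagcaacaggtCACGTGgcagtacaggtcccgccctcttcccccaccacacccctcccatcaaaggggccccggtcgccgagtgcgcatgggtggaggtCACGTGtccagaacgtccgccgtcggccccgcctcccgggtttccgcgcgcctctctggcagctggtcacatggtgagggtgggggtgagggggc
CACGTG reads the same on both strands and occurred 3 times, with first bases 203, 183 and 95 bases before the start. Of all 33469 windows of 300 bases in the RefSeq table, 6.42% held it. Windows were found for 6 of the 9 members (Ccnd3, Ccne1, Cdk4, Rb1, Cdkn1b and Cdkn2c). The E2F motif TTTNNCGC, searched on both strands, was in 4.92% of all windows and among the 6 only in that of Rb1. A match describes the letters and says nothing of binding.

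The deposited values are log2 expression values, so a difference of 1 means a doubling. The 2 chemicals' arrays were on separate scales (array medians of 3.54 to 3.62 for DMPT and 2.73 to 2.81 for p-toluidine), so levels are compared only within a chemical and only within a probe set. Hepatocyte markers were bright in all groups at 120 mg/kg and vehicle, with the dimmest of the 7 averaging at least 9.22. Their summed log2 levels were 85.4 to 86.2 at 120 mg/kg DMPT against 86.4 to 87.2 in its vehicle, and 83.9 to 84.6 at 120 mg/kg p-toluidine against 84.5 to 85.2. Of the 7, 2 fell at 120 mg/kg DMPT and 0 at 120 mg/kg p-toluidine (limma, adjusted p of at most 0.05). Of all named genes, 12.7% and 14.8% were called there. Summed log2 levels of the 7 cholangiocyte markers were 26.5 to 28.5 at 120 mg/kg DMPT against 24.5 to 25.8 in its vehicle, and 22.01 to 23.54 at 120 mg/kg p-toluidine against 19.06 to 21.22. Of these 7, 2 rose with DMPT (median log2 difference 0.07) and 3 with p-toluidine (median 0.15), so the sums do not describe every marker. The dimmest of them averaged 1.68 at 120 mg/kg DMPT and 0.97 at 120 mg/kg p-toluidine, below the array medians. Of the 8 erythroid markers, 2 rose at 120 mg/kg DMPT and 3 at 120 mg/kg p-toluidine. Their summed log2 levels were 42.5 to 45.8 at 120 mg/kg DMPT against 40.1 to 42.3, and 39.3 to 41.5 at 120 mg/kg p-toluidine against 36.8 to 39.1. Of the 9 Kupffer cell and macrophage markers, 1 rose at 120 mg/kg DMPT and 1 fell at 120 mg/kg p-toluidine. Their summed log2 levels were 56.5 to 58.1 at 120 mg/kg p-toluidine against 58.4 to 59.4, and overlapped for DMPT. Those of the 8 stellate cell and fibroblast markers were 42.4 to 43.8 at 60 mg/kg DMPT against 44.1 to 47.4 in its vehicle, where 3 of 8 fell, and 42.8 to 47.4 at 120 mg/kg DMPT, where 1 fell. At 60 and 120 mg/kg p-toluidine they were 36.4 to 41.3 and 37.9 to 41.0, against 40.7 to 43.0 in its vehicle, and 4 and 2 of 8 fell. Of all named genes, 7.31% were called at 60 mg/kg DMPT and 6.6% at 60 mg/kg p-toluidine, beside the 12.7% and 14.8% at 120 mg/kg. Marker sums of endothelium, lymphocytes and neutrophils overlapped those of vehicle at 120 mg/kg of both chemicals. For beta-actin, the 3′ probe set exceeded the 5′ probe set, a gauge of RNA integrity, by 1.28 ± 0.081 at 120 mg/kg DMPT against 1.48 ± 0.148 in vehicle, and 1.51 ± 0.085 at 120 mg/kg p-toluidine against 1.80 ± 0.147 (SD, n = 5 each). The part of these shifts in the members' results was not tested, except that fits with the actin difference as a covariate are given where they change a call. In whole liver, fewer cells of a type and less RNA per cell cannot be told apart. The 5 arrays that stood apart by a narrow spread of values were all of DMPT (replicate 3 at 6 mg/kg, replicates 3 and 5 at 60 mg/kg and replicates 2 and 5 at 120 mg/kg). Values without them are given below for Ccnd1, for the other members at 120 mg/kg DMPT, for the counts of each gene list there and for the named genes whose call there changed, while the correlations use all 60 arrays.

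Ccnd1, the D-type cyclin that couples growth signals to CDK4 and CDK6, was lower at every dose of DMPT than in vehicle on all 3 probe sets, and lower at 6 mg/kg p-toluidine and above. The lowest means were at 60 and 120 mg/kg, where the brightest probe set was 2.73-fold and 2.84-fold below vehicle with DMPT and 2.47-fold and 2.11-fold below vehicle with p-toluidine.

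On the brightest probe set (1383075_at), the DMPT vehicle arrays read 8.15, 7.60, 7.93, 7.61 and 7.94 for Ccnd1. At 1 mg/kg DMPT they read 8.19, 7.30, 7.20, 6.86 and 7.57, and at 6 mg/kg they read 6.51, 7.36, 6.75, 7.31 and 7.01. The 1 mg/kg arrays overlapped the vehicle arrays, while all 5 arrays at 6 mg/kg lay below all vehicle arrays. At 20 mg/kg the values were 7.03, 7.52, 6.69, 6.87 and 7.09. The 60 mg/kg arrays read 6.50, 6.71, 6.28, 6.39 and 6.10, and those at 120 mg/kg read 6.57, 5.85, 6.50, 6.38 and 6.40. Arrays at 20, 60 and 120 mg/kg DMPT were all below the vehicle range. The group means in dose order were 7.85 ± 0.24, 7.43 ± 0.50, 6.99 ± 0.36, 7.04 ± 0.31, 6.40 ± 0.23 and 6.34 ± 0.29 (SD, n = 5 each). From the highest to the lowest mean the order was vehicle, 1, 20, 6, 60 and 120 mg/kg, and the ranges of neighbouring doses overlapped throughout.

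For p-toluidine, the Ccnd1 values of the same probe set were 6.36, 6.20, 6.29, 6.98 and 7.38 in vehicle. They were 6.77, 6.36, 6.66, 6.14 and 6.42 at 1 mg/kg and 5.94, 5.84, 5.95, 6.20 and 6.21 at 6 mg/kg. The vehicle arrays were spread widely, with replicates 4 and 5 above the other 3, and both lowest doses overlapped them. At 20 mg/kg the arrays read 5.85, 5.88, 5.61, 5.90 and 5.96. The 60 mg/kg arrays read 5.11, 5.86, 5.19, 5.34 and 5.18, and at 120 mg/kg they read 5.40, 5.66, 5.93, 5.48 and 5.33. All 15 arrays at these 3 doses were below every vehicle array, and the lowest mean was at 60 mg/kg (5.33 ± 0.31) and not at 120 mg/kg (5.56 ± 0.24), with overlapping ranges between them.

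**Figure D1:**
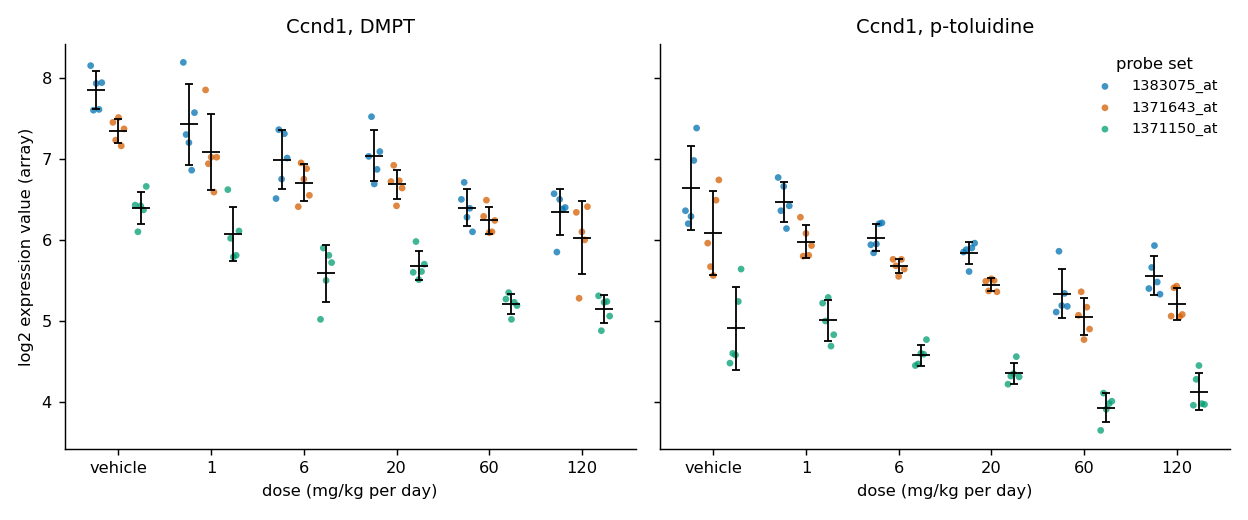
Log2 expression value of Ccnd1 on each array (points) against dose in mg/kg per day, with 1 colour for each of the 3 probe sets, DMPT on the left and p-toluidine on the right; black bars give the mean and SD of 5 arrays. On 1383075_at the arrays at 20 mg/kg and above lie below all vehicle arrays with both chemicals, and the p-toluidine vehicle arrays spread from 6.20 to 7.38.

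The log2 difference from vehicle on 1383075_at was -0.42, -0.86, -0.81, -1.45 and -1.51 at 1, 6, 20, 60 and 120 mg/kg DMPT (SE 0.19). At the same doses of p-toluidine it was -0.17, -0.61, -0.80, -1.31 and -1.08 (SE 0.17). Its 95% interval was -1.89 to -1.12 at 120 mg/kg DMPT and -1.43 to -0.73 at 120 mg/kg p-toluidine. At 1 mg/kg p-toluidine the interval was -0.52 to 0.18. Without the arrays that stood apart, the differences at 6, 60 and 120 mg/kg DMPT were -0.80, -1.31 and -1.36. With the actin difference in the fit it was -1.48 at 120 mg/kg DMPT and -0.97 at 120 mg/kg p-toluidine.

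On 1371643_at the log2 difference ran from -0.26 at 1 mg/kg to -1.32 at 120 mg/kg DMPT (SE 0.17), and was -1.03 at 60 mg/kg and -0.88 at 120 mg/kg p-toluidine (SE 0.15). On 1371150_at, the dimmest, it was -1.18 at 60 mg/kg and -1.25 at 120 mg/kg DMPT (SE 0.14), and -0.98 at 60 mg/kg and -0.78 at 120 mg/kg p-toluidine (SE 0.16). Unlike on the brightest probe set, its arrays at 20 mg/kg p-toluidine overlapped vehicle (4.22 to 4.56 against 4.48 to 5.64). The only positive Ccnd1 difference among the 30 was on this probe set at 1 mg/kg p-toluidine, 0.10 with a 95% interval of -0.22 to 0.41. Across the 60 arrays, after the mean of the same chemical's vehicle arrays was subtracted, the dimmer probe sets followed the brightest with Pearson correlations of 0.96 each, which describes arrays that share a dose series.

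The responses to DMPT and p-toluidine, each against its own vehicle, were set side by side at equal dose in mg/kg. For Ccnd1 on 1383075_at, DMPT minus p-toluidine was -0.25, -0.24, -0.00, -0.14 and -0.42 at 1, 6, 20, 60 and 120 mg/kg, with a 95% interval of -0.96 to 0.11 at 120 mg/kg. On 1371643_at it was -0.44 at 120 mg/kg (95% interval -0.92 to 0.04), and on 1371150_at it was -0.47 at both 6 and 120 mg/kg (95% interval -0.91 to -0.03 at 120 mg/kg). These differences of Ccnd1 are a description, with no test.

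**Figure D2:**
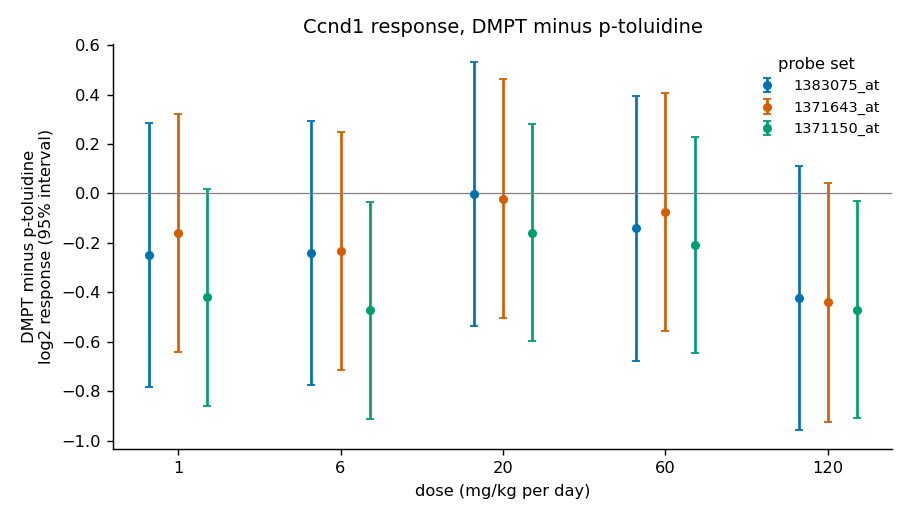
Difference between the Ccnd1 responses, DMPT minus p-toluidine, in log2 units at each dose in mg/kg per day, by probe set; points are estimates and bars are 95% intervals from the fit of all 60 arrays. All 15 points are below 0, and at 120 mg/kg they are -0.42, -0.44 and -0.47.

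Across all 31042 probe sets, the responses to the 2 chemicals differed (limma, adjusted p of at most 0.05) on 0% of them at 1, 6, 20 and 60 mg/kg and on 0.00644% at 120 mg/kg. Of the 8 other members, 0 were called in any of these 5 comparisons. At an unadjusted p under 0.05 the count was 0 at the 4 lower doses and 1 at 120 mg/kg, which was Cdkn1b, with a difference of -0.26 (95% interval -0.49 to -0.02, adjusted p = 0.705). These counts do not show that the chemicals act alike on the members, since the 95% intervals at 120 mg/kg ran from -0.31 to 0.07 for Cdk4, the narrowest, and from -2.10 to 0.37 for Myc, the widest.

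The same adjusted p was used for each dose against vehicle. With DMPT, 0 of the 8 members were called at 1, 6, 20 and 60 mg/kg, where 0%, 0.168%, 2.61% and 5.2% of all probe sets were called, and 1 was called at 120 mg/kg (Cdkn2c), against 9.8% of all probe sets. With p-toluidine, 0 were called at 1, 6 and 20 mg/kg, against 0%, 0% and 0.786% of all probe sets, 1 at 60 mg/kg (Ccnd2) against 4.51%, and 2 at 120 mg/kg (Cdkn2c and Rb1) against 10.7%. At an unadjusted p under 0.05 the DMPT counts were 0, 1, 0, 1 and 3 from the lowest to the highest dose, and the p-toluidine counts were 0, 0, 0, 4 and 4. As a slope over the rank of the dose, 2 members were called with DMPT (Cdkn2c and Rb1), against 14.9% of all probe sets, and 3 with p-toluidine (Ccnd2, Cdkn2c and Rb1), against 14.5%. With 8 members picked with the results known, these counts describe the set and support nothing beyond it.

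**Figure D3:**
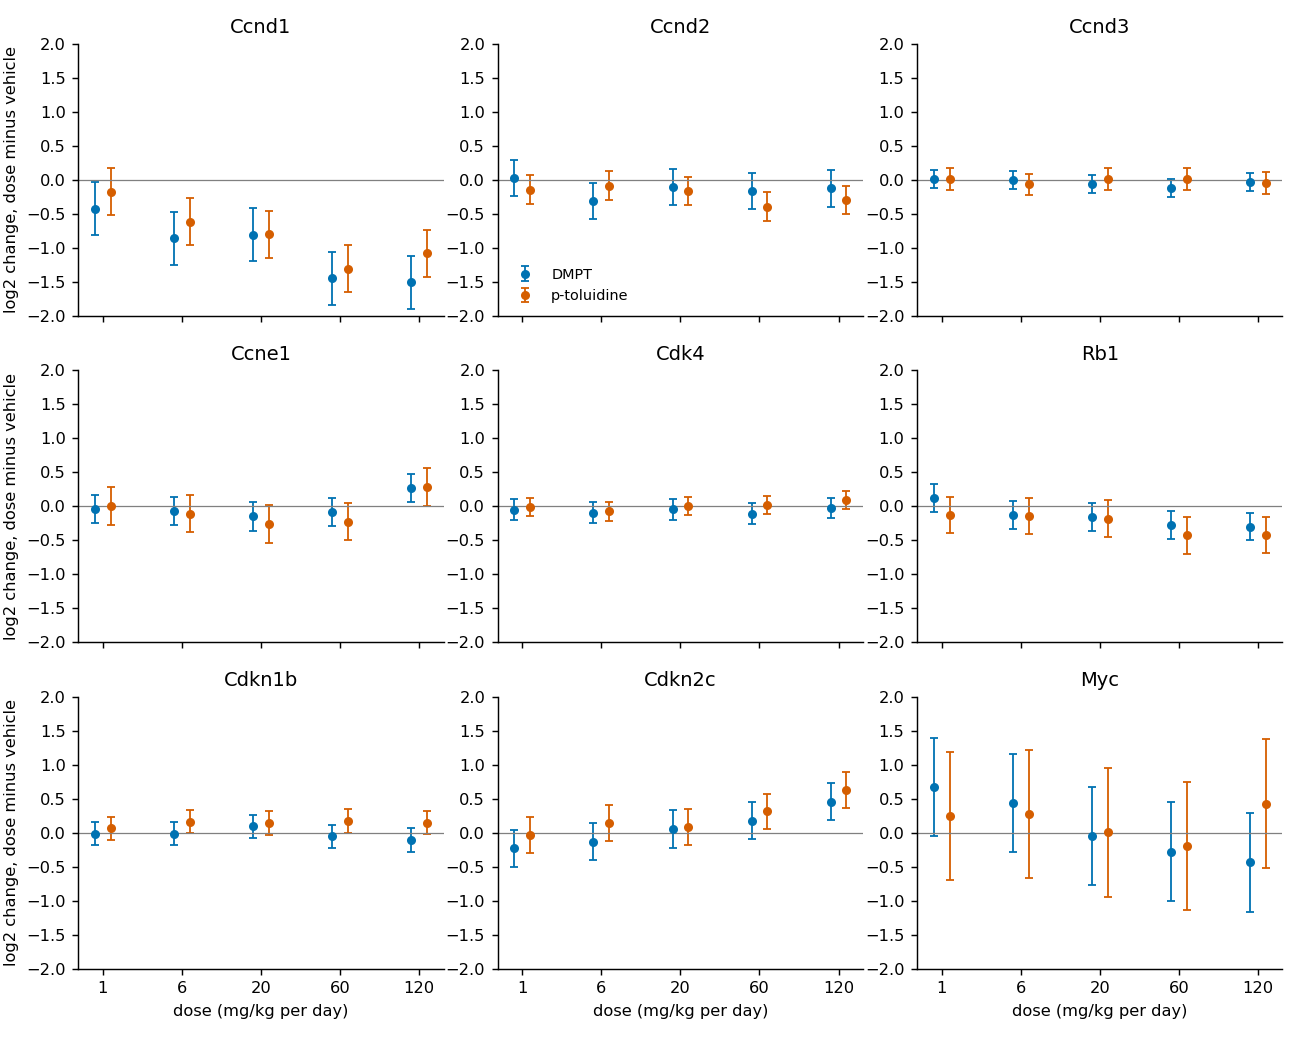
Log2 difference from vehicle at each dose in mg/kg per day for the 9 genes, DMPT and p-toluidine side by side; points are estimates from the fit within each chemical and bars are 95% intervals. Ccnd1 (probe set 1383075_at) goes down to -1.51 and -1.08 at 120 mg/kg, Cdkn2c goes up to 0.46 and 0.63, and the intervals of Myc reach from -1.16 to 1.40.

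Cdkn2c, whose product p18 inhibits the kinases that D-type cyclins activate, rose at 120 mg/kg of both chemicals. Its arrays read 6.66, 6.42, 6.80, 6.49 and 6.83 at 120 mg/kg DMPT against 5.85, 6.41, 6.02, 6.33 and 6.32 in vehicle. At 120 mg/kg p-toluidine they read 6.11, 5.93, 5.69, 5.73 and 6.24 against 5.45, 5.32, 5.58, 5.34 and 4.87. All 5 dosed arrays were above every vehicle array with each chemical, although the nearest DMPT arrays were almost level. The log2 change was 0.46 ± 0.14 for DMPT (SE, limma adjusted p = 0.0262) and 0.63 ± 0.13 for p-toluidine (SE, limma adjusted p = 0.00111), folds of 1.37 and 1.54. The slope per step of dose was 0.11 with DMPT (limma adjusted p = 0.00288) and 0.12 with p-toluidine (limma adjusted p = 0.000361). The DMPT slope lost its call with the actin difference in the fit (0.08, adjusted p = 0.0524) and was 0.10 (adjusted p = 0.0139) without the arrays that stood apart.

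The rise of Cdkn2c with p-toluidine was called under all the alternatives tried and with each array left out, whereas that with DMPT was not. The DMPT difference was 0.47 (adjusted p = 0.0509) without the arrays that stood apart, and its adjusted p was 0.173 with the actin difference in the fit, and 0.0535 to 0.102 without vehicle array 1 or 3 or dosed array 1, 3 or 5. A second Cdkn2c probe set, 1378711_x_at, whose suffix marks probes that can match other transcripts, averaged 3.62 at 120 mg/kg DMPT against 3.68 in vehicle and 3.54 at 120 mg/kg p-toluidine against 3.55. Its log2 differences there were -0.06 (95% interval -0.23 to 0.12) and -0.01 (95% interval -0.20 to 0.18), opposite in sign to the brighter probe set. With the mean of both probe sets, Cdkn2c was 0.20 higher at 120 mg/kg DMPT with an adjusted p of 0.118 and 0.31 higher at 120 mg/kg p-toluidine with an adjusted p of 0.0236 (limma), and the slopes were 0.04 and 0.06 (limma adjusted p = 0.0412 and 0.00961).

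Rb1, the retinoblastoma protein gene that D-type cyclin kinases act on, fell at 120 mg/kg p-toluidine. Its arrays read 5.01, 4.64, 4.77, 4.80 and 4.63 at 120 mg/kg p-toluidine against 5.03, 5.40, 5.47, 5.26 and 4.82 in vehicle. Replicate 1 of the dosed group and replicate 5 of the vehicle group overlapped, and all 5 dosed arrays were below the vehicle mean. The log2 change was -0.42 ± 0.13 (SE, limma adjusted p = 0.0328), and at 60 mg/kg it was -0.43 with an adjusted p of 0.0568. With DMPT the arrays read 5.43, 5.33, 5.35, 5.42 and 5.28 at 120 mg/kg against 5.95, 5.64, 5.43, 5.68 and 5.60 in vehicle. The dosed arrays reached up to the lowest vehicle array, and the log2 difference of -0.30 ± 0.10 (SE) missed the threshold with an adjusted p of 0.0534. It was -0.26 (adjusted p = 0.182) without the arrays that stood apart.

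Over the whole dose series, the Rb1 slope per step of dose was -0.08 with DMPT (limma adjusted p = 0.0015) and -0.09 with p-toluidine (limma adjusted p = 0.00422), and both slopes were called under the alternatives tried. The call at 120 mg/kg p-toluidine was lost with the actin difference in the fit (adjusted p = 0.129). It was also lost without vehicle array 2, 3 or 4 or dosed array 2, 3, 4 or 5, with adjusted p values of 0.0525 to 0.106.

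Ccnd2, a second D-type cyclin, fell at 60 mg/kg p-toluidine, where 4 of 8 stellate cell and fibroblast markers also fell (their median log2 difference was -0.36), and the part of that shift was not tested. Its arrays read 4.05, 3.76, 4.21, 3.92 and 3.80 at 60 mg/kg and 4.21, 3.84, 4.06, 4.05 and 4.07 at 120 mg/kg, against 4.04, 4.23, 4.40, 4.53 and 4.49 in vehicle. The dosed ranges overlapped the vehicle range through vehicle replicate 1, and all 10 dosed arrays were below the vehicle mean of 4.34. The log2 change was -0.39 ± 0.10 at 60 mg/kg (SE, limma adjusted p = 0.0221) and -0.29 ± 0.10 at 120 mg/kg (SE, adjusted p = 0.067). The slope per step of dose was -0.07 (limma adjusted p = 0.00936). The call at 60 mg/kg was lost in a fit of those groups alone (adjusted p = 0.0877) and without vehicle array 3, 4 or 5 or dosed array 2, 4 or 5 (0.0506 to 0.084). With DMPT the Ccnd2 differences ran from -0.31 at 6 mg/kg to 0.03 at 1 mg/kg, with adjusted p values of 0.468 and above. Those at 6, 60 and 120 mg/kg were -0.36, -0.13 and -0.00 without the arrays that stood apart.

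**Figure D4:**
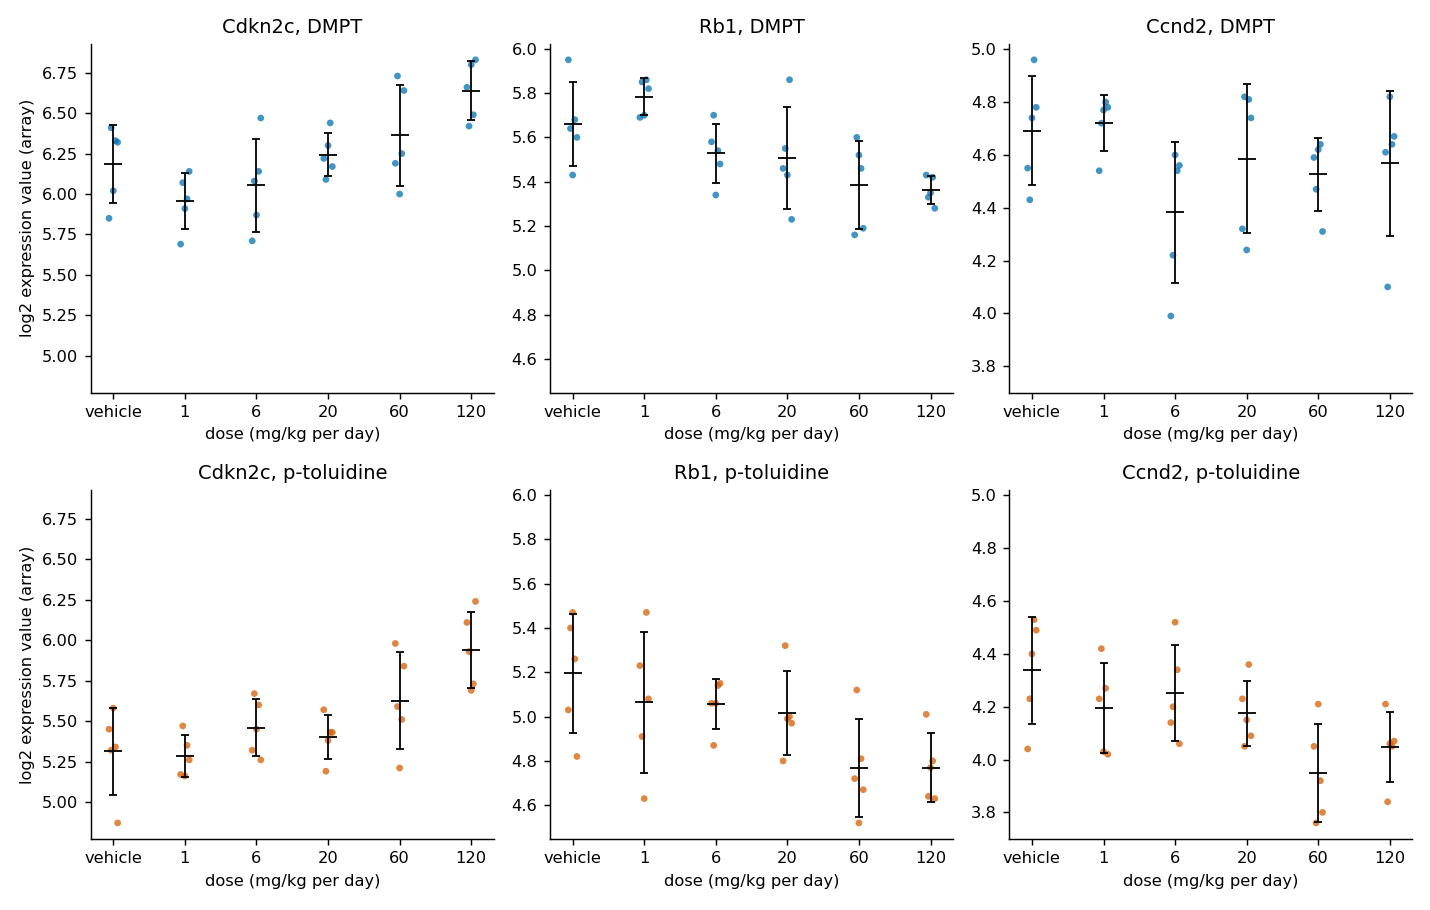
Log2 expression value on each array against dose in mg/kg per day for Cdkn2c, Rb1 and Ccnd2, DMPT above and p-toluidine below; points are arrays and black bars give the mean and SD of 5 arrays. Cdkn2c at 120 mg/kg averages 6.64 with DMPT and 5.94 with p-toluidine, above all vehicle arrays of the same chemical, while the Rb1 and Ccnd2 groups overlap their vehicle groups.

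Ccnd3, the third D-type cyclin, and Cdk4, the kinase that D-type cyclins activate, had narrow spreads, with group SDs of 0.043 to 0.167 for Ccnd3 and of 0.031 to 0.155 for Cdk4. Group means of Ccnd3 ran from 5.61 to 5.74 with DMPT and from 4.93 to 5.01 with p-toluidine, and its log2 differences from vehicle lay between -0.12 and 0.02, with interval limits of -0.25 and 0.18. At 60 mg/kg DMPT its 5 arrays, 5.54 to 5.64, were all below the vehicle arrays (lowest 5.65), and the difference was not called (limma adjusted p = 0.356, and 0.43 without the arrays that stood apart). Cdk4 read 7.47, 7.43, 7.67, 7.62 and 7.53 at 120 mg/kg DMPT against 7.56, 7.55, 7.63, 7.56 and 7.54 in vehicle, and 6.65, 6.48, 6.49, 6.56 and 6.78 at 120 mg/kg p-toluidine against 6.45, 6.65, 6.34, 6.54 and 6.52. Its log2 differences over the 10 dose groups were between -0.11 and 0.10, and the lowest and highest limits of their 95% intervals were -0.26 and 0.23. None of the 20 differences of Ccnd3 and Cdk4 was called (limma, lowest adjusted p = 0.356). When the arrays that stood apart were left out, the Cdk4 difference was -0.01 at 60 mg/kg and 0.02 at 120 mg/kg DMPT, and that of Ccnd3 was -0.02 at 120 mg/kg DMPT.

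Cdkn1b, which encodes the CDK inhibitor p27, ran from 7.46 to 7.70 at 120 mg/kg DMPT against 7.61 to 7.83 in vehicle, and from 6.83 to 7.04 at 120 mg/kg p-toluidine against 6.60 to 6.99. Its log2 differences were -0.11 to 0.10 with DMPT and 0.07 to 0.17 with p-toluidine, none of them called (lowest adjusted p = 0.308). With the arrays that stood apart left out it was 0.08 at 60 mg/kg and -0.07 at 120 mg/kg DMPT. The dim second probe set (1369192_at) differed by -0.29 to 0.08 with DMPT and by 0.21 to 0.58 with p-toluidine, with a lowest adjusted p of 0.0956.

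Ccne1, the E-type cyclin that acts after the D-type cyclins, had its highest means at 120 mg/kg of both chemicals, without passing the threshold. It read 4.55, 4.37, 4.04, 4.36 and 4.54 at 120 mg/kg DMPT against 3.83, 4.08, 4.40, 4.03 and 4.15 in vehicle. At 120 mg/kg p-toluidine it read 4.33, 3.59, 3.43, 3.94 and 4.21 against 3.58, 3.56, 3.83, 3.71 and 3.39. The groups overlapped, with 4 of 5 dosed DMPT arrays and 3 of 5 dosed p-toluidine arrays above the vehicle mean. The log2 differences were 0.27 ± 0.10 for DMPT (SE, limma adjusted p = 0.0948) and 0.29 ± 0.13 for p-toluidine (SE, limma adjusted p = 0.198), and at 20 mg/kg they were -0.15 and -0.26. The DMPT difference was 0.22 (adjusted p = 0.326) without the arrays that stood apart.

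Myc, a transcription factor of growth genes, was the most variable member. It read 5.63, 5.02, 5.53, 4.37 and 5.29 at 120 mg/kg DMPT against 5.12, 4.25, 5.81, 6.41 and 6.44 in vehicle. At 120 mg/kg p-toluidine it read 4.49, 5.55, 6.46, 4.89 and 5.07 against 4.28, 4.15, 5.35, 4.74 and 5.79. The groups overlapped, and the 5 arrays at 6 mg/kg p-toluidine ran from 3.64 to 6.25. The log2 difference at 120 mg/kg was -0.44 ± 0.36 with DMPT (SE, limma adjusted p = 0.536) and 0.43 ± 0.46 with p-toluidine (SE, limma adjusted p = 0.671). The 95% intervals were -1.16 to 0.29 and -0.52 to 1.38. The DMPT difference was -0.43 without the arrays that stood apart. The DMPT slope over dose rank was -0.16 with an adjusted p of 0.0913.

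Genes that act downstream of the members, beside them or upstream of Ccnd1 were described through gene lists. In each, a gene was represented by its brightest probe set, and 12.7% of all named genes were called at 120 mg/kg DMPT and 14.8% at 120 mg/kg p-toluidine, with medians of -0.00 for all named genes in both. Mitotic genes, which the choice of the set used, had a median log2 difference of 0.71 over 26 genes at 120 mg/kg DMPT and of 0.90 at 120 mg/kg p-toluidine, where Ccnd1 stood at -1.51 and -1.08. Without the arrays that stood apart the DMPT median was 0.75 at 120 mg/kg and 0.48 at 60 mg/kg, against 0.35 at 60 mg/kg with all arrays. Mki67, the gene of the proliferation antigen Ki-67, averaged 6.71 at 120 mg/kg DMPT against 5.80 in vehicle and 5.82 at 120 mg/kg p-toluidine against 4.50. Spc25, a kinetochore subunit, was 0.83 and 1.21 above vehicle, Aurkb, the Aurora B kinase of chromosome segregation, 0.68 and 1.16, and Ccna2, cyclin A2, 0.53 and 1.15.

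At the lower doses the mitotic medians lay on different sides of 0 with the 2 chemicals. At 1, 6 and 20 mg/kg DMPT, the mitotic median was -0.39, -0.64 and -0.55, with 0 of 26 genes above their vehicle mean at each dose. At the same doses of p-toluidine it was 0.03, 0.25 and 0.06, with 14, 25 and 18 of 26 above. Ccnd1 was at -0.86 with DMPT and -0.61 with p-toluidine at 6 mg/kg. Low Ccnd1 at 6 mg/kg thus stood beside a mitotic median below 0 with DMPT and above 0 with p-toluidine. These mitotic values were part of what chose the set and are a description. All doses of a chemical were compared with the same 5 vehicle arrays, and the 26 genes were read on the same arrays. The medians and counts at these doses are therefore not independent of each other. The contrast between the chemicals rests on the level of each vehicle group as well as on the dosed arrays. At 1 mg/kg of either chemical, 0% of all probe sets were called (limma).

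**Figure D5:**
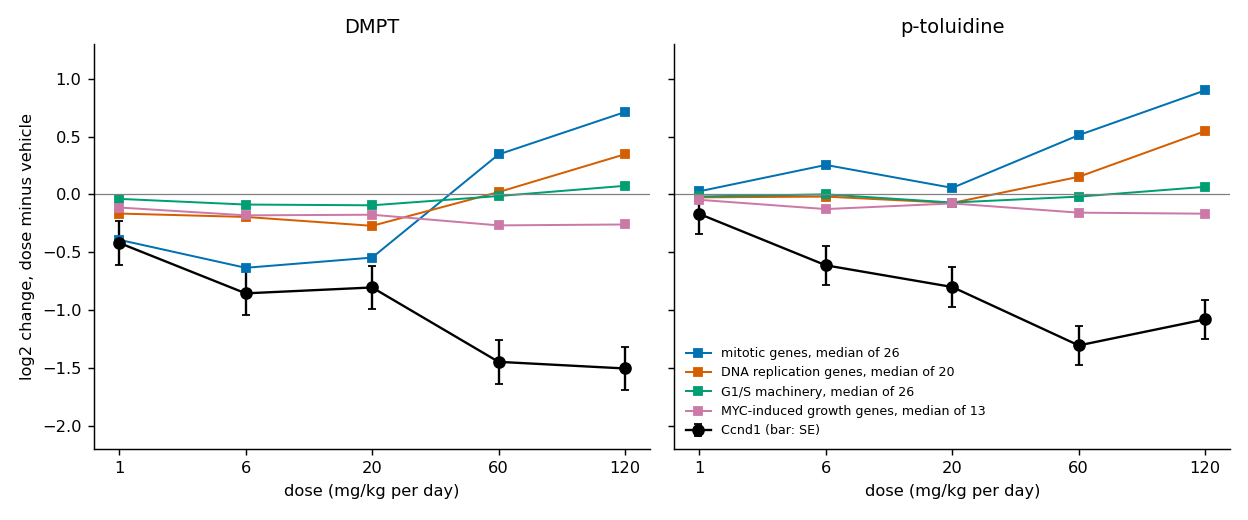
Log2 difference from vehicle at each dose in mg/kg per day for Ccnd1 (black, probe set 1383075_at, bars are SE) and the median difference of 4 gene lists (coloured), DMPT on the left and p-toluidine on the right. Ccnd1 goes down to -1.51 and -1.08 at 120 mg/kg while the mitotic median reaches 0.71 and 0.90, and with DMPT the mitotic median is -0.39 to -0.64 at the 3 lowest doses.

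DNA replication genes, which E2F factors are known to induce, rose in 6 of 20 at 120 mg/kg DMPT and in 14 of 20 at 120 mg/kg p-toluidine, none fell, and the medians were 0.35 and 0.55. The list was picked with the results known, and its genes were read on the same arrays as the mitotic genes that chose the set. With DMPT its median lay on the same side of 0 as the mitotic median at every dose. Its calls are therefore not independent of that choice and are a description. Mcm6, a subunit of the replicative helicase, averaged 5.58 ± 0.19 at 120 mg/kg DMPT against 4.69 ± 0.56 in vehicle (SD, n = 5, limma adjusted p = 0.0111) and 5.46 ± 0.75 at 120 mg/kg p-toluidine against 4.28 ± 0.34 (SD, n = 5, limma adjusted p = 0.0025). Gins1, a further helicase component, was 0.64 and 0.95 above vehicle (limma adjusted p = 0.00143 and 0.000275), and Mcm4, another helicase subunit, 0.59 and 0.84 (limma adjusted p = 0.0147 and 0.00429). Prim1, a primase subunit, rose with p-toluidine (0.96, limma adjusted p = 0.000184) and missed the threshold with DMPT (0.52, adjusted p = 0.059). At 20 mg/kg DMPT, where 3.33% of all named genes were called, 3 of the 20 fell, Mcm6 among them (-0.90, limma adjusted p = 0.029).

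The DNA replication count at 120 mg/kg was 3 with the actin difference in the fit, 4 without vehicle array 1 and 7 without the arrays that stood apart, where Prim1 was called (adjusted p = 0.0323) and Mcm4 was not (adjusted p = 0.063), and with p-toluidine it stayed between 11 and 15 under all the alternatives and with each array left out.

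Other G1/S machinery, a list also picked with the results known, moved in both directions, and its calls are a description. Of 26 such genes, 4 rose and 2 fell at 120 mg/kg DMPT (median 0.07), and 5 rose and 1 fell at 120 mg/kg p-toluidine (median 0.06). The shares called of all named genes were 12.7% and 14.8%. The 4 genes named next had the largest differences at 120 mg/kg of either chemical. All of them were above vehicle there, so the genes that fell at 120 mg/kg are not among them. E2f8, an E2F family repressor, was 0.86 above vehicle at 120 mg/kg DMPT (limma adjusted p = 0.000291) and 0.87 above at 120 mg/kg p-toluidine (limma adjusted p = 0.000117). Cks2, which binds cyclin-dependent kinases, rose by 0.60 and 0.67 (limma adjusted p = 0.025 and 0.000538). Rbl1, the gene of the retinoblastoma relative p107, rose at 120 mg/kg DMPT (0.58, limma adjusted p = 0.02) and was 0.52 above vehicle at 120 mg/kg p-toluidine (adjusted p = 0.0958). At 6 and 20 mg/kg DMPT Rbl1 was below vehicle (-0.71 and -0.54, limma adjusted p = 0.0629 and 0.0742). Both differences were called without the arrays that stood apart (-0.69 and -0.54, limma adjusted p = 0.0453 and 0.0268). Cdkn1a, the gene of the CDK inhibitor p21, rose at 120 mg/kg p-toluidine (0.70, limma adjusted p = 0.0417). With DMPT it fell at 6 and 20 mg/kg (-0.76 and -0.62, limma adjusted p = 0.026 and 0.0211). It was 0.15 above vehicle at 120 mg/kg DMPT (adjusted p = 0.637). Of the 26 genes, 1 fell at 6 and 1 at 20 mg/kg DMPT, against 0.211% and 3.33% of all named genes called. Without the arrays that stood apart 5 rose and 2 fell at 120 mg/kg DMPT. The number that rose there ranged from 1 to 6 over the alternatives, and it was 1 with the actin difference in the fit, without vehicle array 1 and without dosed array 4, and 2 without vehicle array 2 and without dosed array 1. The number that fell was 1 without vehicle array 3 or 5 or dosed array 1, 2, 3 or 4. At 120 mg/kg p-toluidine 3 rose without vehicle array 4, dosed array 1 or dosed array 5.

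The MYC network was measured by 12 genes of its partners and antagonists, of which 0 were called at 120 mg/kg DMPT by limma (3 at an unadjusted p under 0.05). Of all named genes, 12.7% were called there and 14.8% at 120 mg/kg p-toluidine. At 120 mg/kg p-toluidine 2 rose, Mxd4 (0.48, limma adjusted p = 0.0189) and Mxi1 (0.42, limma adjusted p = 0.0096), both MAX partners that oppose MYC, and Mlxipl, the glucose-responsive factor ChREBP, fell (-0.44, limma adjusted p = 0.0368). With DMPT the differences of these 3 genes were 0.20, 0.16 and -0.34, with adjusted p values of 0.448, 0.5 and 0.0978. Mnt, a further repressor of the network, was 0.19 and 0.24 above vehicle (adjusted p = 0.166 and 0.309). The DMPT count was also 0 without the arrays that stood apart. With p-toluidine, 1 rose without vehicle array 1 or 3, 0 fell without vehicle array 1, 3 or 4 or dosed array 1, 4 or 5, and 2 fell without vehicle array 5.

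Growth genes that MYC is known to induce had medians below 0 at every dose of both chemicals. Of 13 measured, 6 fell at 60 mg/kg DMPT and 6 at 120 mg/kg DMPT, 0 were called at 60 mg/kg p-toluidine (limma, 5 at an unadjusted p under 0.05) and 2 fell at 120 mg/kg p-toluidine, and none rose. Of all named genes, 7.31% and 12.7% were called at 60 and 120 mg/kg DMPT, and 6.6% and 14.8% at 60 and 120 mg/kg p-toluidine. Fbl, which encodes the nucleolar methyltransferase fibrillarin, averaged 6.74 ± 0.12 at 120 mg/kg DMPT against 7.16 ± 0.16 in vehicle (SD, n = 5, limma adjusted p = 0.000834), with 0.26 below vehicle at 120 mg/kg p-toluidine (adjusted p = 0.0544). Polr1b, a subunit of RNA polymerase I, fell with both (-0.38 and -0.43, limma adjusted p = 0.0206 and 0.0341), as did Ldha, lactate dehydrogenase A (-0.31 and -0.41, limma adjusted p = 0.00843 and 0.000513). Bop1, a ribosome biogenesis factor, fell with DMPT (-0.37, limma adjusted p = 0.0019) and differed by -0.17 with p-toluidine (adjusted p = 0.368). Without the arrays that stood apart the DMPT counts were 2 at 60 mg/kg and 3 at 120 mg/kg, and Polr1b and Ldha were no longer called at 120 mg/kg (adjusted p = 0.117 and 0.0513). At 60 mg/kg DMPT 3 of 8 stellate cell and fibroblast markers also fell (median -0.34, and 1 of 8 without the arrays that stood apart), and the part of that shift was not tested. At 60 mg/kg DMPT the count was also 2 without replicate 3, 3 without replicate 5, 3 without vehicle replicate 3 and 3 in a fit of those groups alone. At 120 mg/kg p-toluidine it was 1 without vehicle array 1, 4 or 5 or dosed array 2.

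A list of 26 genes of growth signals upstream of Ccnd1 held receptors, ligands, transcription factors and other genes of these pathways. Of the 26, 0 rose and 4 fell at 120 mg/kg DMPT, against 12.7% of all named genes called, with a median of -0.05. At 120 mg/kg p-toluidine 1 rose and 1 fell, against 14.8% of all named genes, with a median of 0.01. Fgfr4, the hepatocyte receptor of the bile acid hormone FGF19 (FGF15 in rodents), fell with both chemicals: it averaged 5.98 ± 0.12 at 120 mg/kg DMPT against 6.58 ± 0.08 in vehicle (SD, n = 5, limma adjusted p = 2.78e-06) and 5.52 ± 0.11 at 120 mg/kg p-toluidine against 6.10 ± 0.19 (SD, n = 5, limma adjusted p = 5.72e-06). Stat3, a cytokine-activated factor, rose with p-toluidine (0.61, limma adjusted p = 0.00521) and differed by -0.11 with DMPT (adjusted p = 0.77). Egfr, the receptor of epidermal growth factor, was 0.29 and 0.58 below vehicle without passing the threshold (adjusted p = 0.478 and 0.152), and Ccn1, a target of the YAP pathway, was 0.28 and 0.64 above (adjusted p = 0.548 and 0.075). Without the arrays that stood apart 3 of the 26 fell at 120 mg/kg DMPT and Fgfr4 was -0.52 from vehicle (limma adjusted p = 0.000349). Without dosed array 2, 2 of the 26 fell at 120 mg/kg DMPT, and without vehicle array 5 or dosed array 5, 2 fell at 120 mg/kg p-toluidine.

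Genes whose pattern over the 60 arrays was most like that of Ccnd1 were ranked among 13973 genes by Pearson correlation with 1383075_at, after the vehicle mean of the same chemical was subtracted. The points share the dose series, so the correlations are a description. The most alike were Ddx21, a nucleolar RNA helicase (0.82), Mrps2, a mitochondrial ribosomal protein (0.81), Icoslg, a ligand of the T-cell receptor ICOS (0.81), Serpind1, the liver-made heparin cofactor II (0.79), and Fgfr4 (0.78). Ddx21 averaged 6.82 at 120 mg/kg DMPT against 7.49 in vehicle and 6.24 at 120 mg/kg p-toluidine against 6.87. The most opposite were Dap (-0.80), Gstt3, a glutathione transferase (-0.80), Tcea3, a transcription elongation factor (-0.78), Ssu72, a phosphatase of RNA polymerase II (-0.78), and Gstm1, a glutathione transferase (-0.77). Gstt3 averaged 10.5 at 120 mg/kg DMPT against 8.04 in vehicle and 10.1 at 120 mg/kg p-toluidine against 7.64.

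Within the set, the correlations with Ccnd1 were 0.45 for Rb1, 0.38 for Ccnd2, 0.27 for Myc, 0.11 for Ccnd3, 0.10 for Cdkn1b, 0.05 for Cdk4, -0.13 for Ccne1 and -0.51 for Cdkn2c. Those of Cdkn1b were 0.38 over the 30 DMPT arrays and -0.36 over the 30 p-toluidine arrays, and those of Cdk4 were 0.23 and -0.28. Rb1 and Ccnd2 were above 0 and Cdkn2c below 0 within each chemical.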

How the data were processed

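Per the labels' protocols, the authors amplified liver RNA with a 3′ IVT kit and hybridized it to 60 arrays (12 groups of 5). The deposited values, taken as log2 expression values per probe set, were made with RMA per the submitters' processing notes, with no version or settings. The log2 scale was inferred from RMA and the range of 0.0507 to 13.9. Arrays carry no read depth, so precision is set by the 5 arrays of a group.

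Of 31099 probe sets, 57 controls were left out and 31042 tested without a filter. Symbols came from the platform annotation, updated through RefSeq GRCr8 (names only). 20826 probe sets had 1 symbol. Each chemical's 30 arrays were fitted with 6 group means in limma 3.58.1 (R 4.3.3) and each dose was contrasted with its vehicle. Responses were compared in a fit of all 60 arrays, and slopes over dose rank within a chemical. Calls needed a Benjamini-Hochberg adjusted p of at most 0.05 over all probe sets. The submitters' design text names ORIOGEN, which was not used here. The script was tested on simulated data.

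Named genes were the 9 members, up to 4 per list ranked by the size of their change at the top dose, and the 5 most and 5 least like Ccnd1. Members and lists were chosen with earlier results of these data known. Of the listed genes, those with a 1-symbol probe set were used. Sequences are from RefSeq. Replicate numbers were checked for pairing and do not pair arrays across groups. Alternatives were the groups compared alone, quantile normalization, an intensity trend with robust spread, array weights, a filter on low values, the mean of a gene's probe sets, a replicate block, leaving out arrays that stood apart or single arrays, an actin covariate and a slope over log2(dose + 1).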

Additional observations from a re-analysis of the deposited data

Results flagged for a closer look

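Within each group of 5 arrays, the highest and lowest value of each of the 11 probe sets used was compared with its nearest neighbour by Dixon's criterion. Of 132 groups examined 7 held a value apart, and chance alone gives about 1 in 20. Ccnd1 (1383075_at) read 5.85 in replicate 2 at 120 mg/kg DMPT, where the other 4 arrays read 6.38 to 6.57. Ccnd2 read 4.10 in the same array, against 4.61 to 4.82 in the others of its group. That array is also among those that stood apart by a narrow spread of values, and without it the Ccnd1 difference from vehicle at 120 mg/kg DMPT was -1.38. Ccnd3 read 4.81 in replicate 3 of the p-toluidine vehicle group (others 5.00 to 5.08), 5.10 in replicate 4 at 1 mg/kg p-toluidine (others 4.97 to 5.00) and 4.82 in replicate 5 at 20 mg/kg p-toluidine (others 5.03 to 5.11). Cdk4 read 7.63 in replicate 3 of the DMPT vehicle group, where the others read 7.54 to 7.56. Myc read 6.11 in replicate 4 at 60 mg/kg p-toluidine, where the other 4 read 4.06 to 4.44.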

How the results depend on the processing

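The Ccnd1 differences from vehicle kept their sign under all alternatives and with each array left out, except at 1 mg/kg p-toluidine, where the difference ran from -0.28 to 0.01 and was 0.01 without vehicle replicate 5. The number of the 8 members called at 120 mg/kg DMPT was 2 with an intensity trend and robust spread, 2 with a filter on low values and 2 with a replicate block, and it was 0 with the mean of all probe sets, 0 without the arrays that stood apart and 0 with the actin covariate. At 60 mg/kg p-toluidine the number was 0 with the groups compared alone and 2 with an intensity trend, 2 with array weights and 2 with the filter. The number called for the DMPT slope was 1 with the actin covariate, where the adjusted p of Cdkn2c was 0.0524. With single arrays left out, the number ranged from 0 to 2 at 120 mg/kg DMPT, from 0 to 1 at 60 mg/kg p-toluidine and from 1 to 3 at 120 mg/kg p-toluidine. The causes were not tested. The replicate block moved no other count of members. Same-numbered arrays correlated at -0.31 to 0.32 over 50 pairs of dose and vehicle groups, 10 of them above 0.1, and 6 of 60 arrays correlated best with their own number. All probe sets called at 120 mg/kg DMPT numbered 3043, with 2253 to 3435 over the alternatives. At 60 mg/kg DMPT 1613 were called (899 to 2082), at 60 mg/kg p-toluidine 1400 (734 to 1748), at 20 mg/kg DMPT 810 (472 to 1627), at 6 mg/kg DMPT 52 (15 to 115), at 20 mg/kg p-toluidine 244 (115 to 408), and for the difference at 120 mg/kg 2 (1 to 21). Counts of 0 became at most 39 for the difference at 20 mg/kg, 5 at 6 mg/kg p-toluidine, 4 at 1 mg/kg p-toluidine, 3 for the difference at 60 mg/kg and 1 for that at 6 mg/kg.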
